A study of Mus musculus with 8 samples.

Results

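The cytosolic ribosomal protein genes were described in bulk RNA sequencing of embryonic mouse forebrain and spinal cord. Members were taken by symbol, as Rpl or Rps followed by a number and at most 1 of the letters a, x or y, which gave 72 of 36317 genes, 43 of the large and 29 of the small ribosomal subunit. All 72 passed the filter on low values (at least 1 RPKM, reads per kilobase scaled to mapped reads, in at least 2 of the 8 libraries). The proteins of the acidic stalk, Rpsa, Rack1 and a few others carry other symbols and are given further on as a separate list.

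The study held 4 groups of 2 libraries each. The first was E15.5 (embryonic day 15.5) forebrain of EED-cKO embryos, with E15.5 wt forebrain as its control. The other pair was wt spinal cord and wt forebrain at E13.5. In EED-cKO embryos Sox1-Cre drives the knockout of Eed, whose protein is part of PRC2, the Polycomb complex that methylates histone H3. Sox1 is a gene of neural progenitors, so cells of vessels, blood and meninges in the dissected tissue are outside the lineage that the driver targets. The labels name no strain, do not say whether wt embryos carried Cre or a floxed allele, and do not say whether a library came from a single embryo or from pooled embryos. The p-values therefore measure only the spread between these samples. Comparisons were made within an age only, since the ages were processed differently.

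Each ribosome carries a copy of nearly every one of these proteins, and growing or dividing cells spend much of their transcription and translation on them. Their mRNAs belong to the TOP class, named for a run of pyrimidines (C or T) that begins with a C at the first base of the transcript. The translation of TOP mRNAs is tuned by mTORC1 signalling through the RNA-binding protein LARP1. In the developing nervous system, proliferating progenitors are known for high ribosome production, and mouse mutants of single ribosomal protein genes show tissue-specific defects.

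Eed itself had 10.0 and 10.6 RPKM in EED-cKO forebrain, against 25.8 and 27.9 RPKM in wt forebrain at E15.5, and it fell (log2 −1.30, SE 0.0850, limma adjusted p = 8.7e-05). It was at 19.1 and 17.0 RPKM in spinal cord, against 31.2 and 34.0 RPKM in wt E13.5 forebrain. All 8 forebrain identity genes fell and all 8 spinal cord identity genes rose in spinal cord against forebrain. In EED-cKO forebrain, 7 of 8 forebrain identity genes fell and all 8 spinal cord identity genes rose, with summed levels of 76.7 and 69.9 RPKM for the spinal cord genes, against 0 and 0 RPKM in wt. At E15.5, names and values of the table were matched in a restored row order, and all 72 members lie in rows that this order moved. In the restored order the lowest member value at E15.5 was 104.5 RPKM, whereas in the deposited order 5 members were under 1 RPKM in all E15.5 libraries. Rpl10l, Rpl3l and Rpl39l, paralogues known mainly from testis or muscle, were at 0.8 RPKM or less in every library in the restored order.

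Ribosomal protein genes made up several percent of the summed RPKM, which is scaled to transcript length and so is not a share of RNA mass. Their summed level was 59616.8 and 59900.4 RPKM in EED-cKO forebrain, against 65653.0 and 84350.4 RPKM in wt E15.5 forebrain. That was 7.72% and 7.86% of all RPKM in EED-cKO, against 8.46% and 10.0% in wt. In wt E13.5 tissue the sum was 9720.1 and 9710.2 RPKM in spinal cord, against 13556.9 and 13781.3 RPKM in forebrain, which was 2.55% and 2.57% against 3.43% and 3.47% of all RPKM. The members' sum was lower in both libraries of EED-cKO and of spinal cord than in either library of the group each was set against. The 2 EED-cKO libraries lay close together, and of the 2 wt E15.5 libraries replicate 2 stood well above replicate 1.

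**Figure D1:**
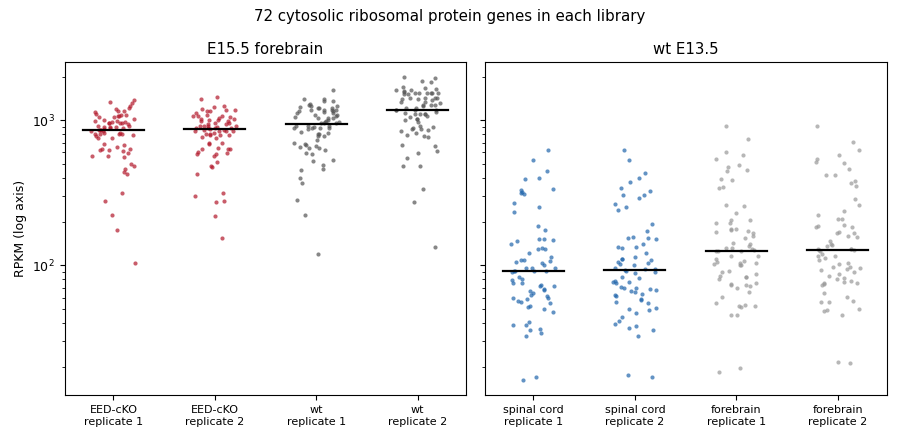
Level of each of the 72 ribosomal protein genes in each library, in RPKM on a log axis, with 1 point per gene and a line at the median. The medians were 863 and 869 RPKM in EED-cKO, against 936 and 1185 RPKM in wt E15.5 forebrain, and 91.2 and 92.3 RPKM in spinal cord, against 126 and 128 RPKM in wt E13.5 forebrain.

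The plot of levels by library shows that members within a library differed far more from each other than any member differed between the groups compared. Over the E15.5 libraries, the highest mean levels were those of Rpl23a (1595 RPKM), which lies at the peptide exit tunnel, Rpl13a (1459 RPKM), Rps2 (1434 RPKM), Rps14 (1402 RPKM) and Rps15 (1398 RPKM). The lowest were those of Rpl29 (128 RPKM), Rpl34 (235 RPKM), Rpl30 (293 RPKM), Rpl22 (335 RPKM) and Rpl27 (369 RPKM). Over the E13.5 libraries, Rpl8 (770 RPKM), Rpl41 (527 RPKM), Rps15 (479 RPKM) and Rpl4 (469 RPKM) were among the highest. Rps15a (18.4 RPKM), Rpl21 (18.8 RPKM), Rps20 (39.1 RPKM), Rpl17 (41.3 RPKM) and Rpl31 (43.4 RPKM) were lowest. The order of levels was nearly the same in the groups compared: across the 72 members, mean levels on the log2 scale had r = 0.975 and rho = 0.962 between EED-cKO and wt, and r = 0.996 and rho = 0.993 between spinal cord and forebrain. These correlations describe genes and not replicates, and gene length is shared by both sides.

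Many of these genes have near-identical retrocopies, and rows of such copies had unlike levels at the 2 ages, which were processed differently. How reads of such copies were placed is not known. Rpl32l was at 80.9 and 84.1 RPKM in spinal cord, against 113.9 and 120.3 RPKM in wt E13.5 forebrain, and at 0.6 RPKM or less in every E15.5 library. Rpl37rt was at 182.4 and 188.3 RPKM in spinal cord, against 228.6 and 212.1 RPKM in wt E13.5 forebrain, and likewise at 0.6 RPKM or less at E15.5. Rps27rt was at 230.8 and 255.0 RPKM in spinal cord, against 342.9 and 346.1 RPKM in wt E13.5 forebrain. At E15.5 it was at 15.5 and 14.7 RPKM in EED-cKO, against 16.9 and 20.4 RPKM in wt. Levels of members with such copies, Rpl32, Rpl37 and Rps27 among them, are therefore uncertain, more so at E13.5.

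The promoters of 53 of the 72 members were listed in a RefSeq table of 27025 mouse genes (build GRCm38.p6), as windows of 300 bases, 250 before and 50 after the transcript start. The letters CCGGAAG, the core of the site of ETS-family factors, stood on either strand in 21 of 53 members (39.6%), against 9.93% of all promoters. CTCGCGAG, the centre of a palindrome known from housekeeping promoters, stood in 7 members (13.2%), against 1.04% of all. AAGATGGC, part of the YY1 site, stood in 5 members (9.43%), against 3.19%, and TATAAA, on either strand, in 5 members (9.43%), against 15.7%. A C at the listed first base followed by at least 4 pyrimidines, searched on the sense strand only, was present in 12 members (22.6%), against 3.01% of all. When the C could lie within 5 bases of that base, the share was 26 of 53 (49.1%), against 21.2%. These matches describe letters in a window and not binding or start-site use. Matches of different motifs that overlap were counted for each motif.

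The following windows of 120 bases run 5′ to 3′ from 100 bases before the start, with capitals for CCGGAAG on the strand shown, CTCGCGAG and a pyrimidine run at the first base. Rpl38 (chr11:114668480-114668599 on the plus strand) and Rps10 (chr17:27635225-27635344 on the minus strand) are shown since they hold the ETS core and a TOP start. Rps19 (chr7:24884492-24884611 on the plus strand) and Rps28 (chr17:33824543-33824662 on the minus strand) hold the palindrome's centre, Rps19 in 2 places, and Rpl22 (chr4:152325626-152325745 on the plus strand) has none of the marked letters.
Rpl38: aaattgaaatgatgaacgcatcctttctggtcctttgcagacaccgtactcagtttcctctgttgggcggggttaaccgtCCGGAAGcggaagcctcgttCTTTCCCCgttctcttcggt
Rps10: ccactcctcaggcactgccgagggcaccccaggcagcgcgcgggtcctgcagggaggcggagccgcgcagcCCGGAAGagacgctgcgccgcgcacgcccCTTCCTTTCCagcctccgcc
Rps19: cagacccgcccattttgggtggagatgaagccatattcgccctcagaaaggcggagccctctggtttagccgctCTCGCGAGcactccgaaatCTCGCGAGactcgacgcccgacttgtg
Rps28: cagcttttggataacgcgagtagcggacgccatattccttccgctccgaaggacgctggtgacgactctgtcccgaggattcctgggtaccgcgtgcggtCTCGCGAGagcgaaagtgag
Rpl22: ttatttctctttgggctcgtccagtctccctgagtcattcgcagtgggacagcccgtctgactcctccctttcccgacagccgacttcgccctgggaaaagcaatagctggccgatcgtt
Rpl22 has 2 listed starts and Rps19 has 3, of which the first in the table was used. The 12 members with a TOP start had median log2 changes of −0.30 in the EED-cKO comparison and −0.46 in spinal cord, against −0.30 and −0.50 in the 41 without. The 21 members with CCGGAAG had −0.30 and −0.45, against −0.31 and −0.51 in the 32 without. The 7 members with CTCGCGAG had −0.28 and −0.52, against −0.31 and −0.47 in the 46 without. The 5 with AAGATGGC had −0.26 and −0.47, against −0.30 and −0.47 in the other 48, and the 5 with TATAAA had −0.28 and −0.52, against −0.30 and −0.46. These medians were not tested.

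In EED-cKO forebrain, transcripts of the ribosomal protein family were lower as a group, by a modest amount. All 72 members had a log2 change below 0 against wt E15.5 forebrain, with a median of −0.30 (SD over members 0.146), against a median of 0.076 over all 17022 tested genes. limma called 29 of the 72 as lower (adjusted p under 0.05) and 0 as higher, where 16.7% of all tested genes were called lower and 30.2% higher. At an unadjusted p under 0.05 there were 43 members, 0 of them higher. The share of all tested genes at that threshold was not computed, so the 43 are not read as particular to the family. limma called 0 members lower with only the 4 libraries compared (3 at an unadjusted p under 0.05), against 8.13% of all tested genes. With no filter on low values it called 7 lower, against 9.83% of all tested genes, so neither setting put the members clearly above that share. Of the 43 large-subunit members 16 fell (median −0.30), and of the 29 small-subunit members 13 fell (median −0.32). The median corresponds to a level 19.0% lower, and the members between the quartiles lay between 13.4% and 23.3% lower. In bulk tissue, fewer cells rich in these transcripts and less RNA per cell cannot be told apart. RPKM gives a relative level and not an amount per cell.

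The size of the change depended on the wt library it was set against. In wt E15.5 forebrain, replicate 2 exceeded replicate 1 in 72 of 72 members by a median log2 difference of 0.36 (SD 0.0667), where the median of all tested genes was −0.027. In EED-cKO the same difference was 0.0073. Against wt replicate 1 the members' medians were −0.12 in EED-cKO replicate 1 (66 of 72 below 0) and −0.12 in replicate 2 (64 below 0). Against wt replicate 2 they were −0.48 (72 below 0) and −0.49 (71 below 0). In the fit without wt replicate 2 the members' median was −0.13 (66 of 72 below 0), and without wt replicate 1 it was −0.49 (72 below 0). Without EED-cKO replicate 1 the median was −0.30 (71 of 72 below 0), and without EED-cKO replicate 2 it was −0.30 (72 below 0). In both fits the share of members called lower was below that of all tested genes. With any E13.5 library left out fewer members were called than in the main fit. With a spinal cord library left out, their share was close to that of all tested genes. In 62 members both EED-cKO values lay below both wt values, where 27.6% of all tested genes did so and 42.6% had both EED-cKO values higher.

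**Figure D2:**
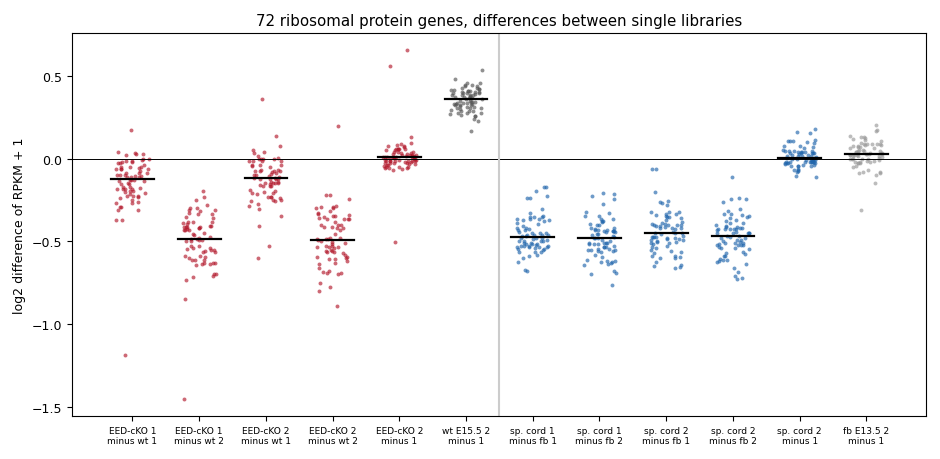
Difference of log2(RPKM + 1) between single libraries for each of the 72 members, with lines at the medians, in E15.5 forebrain (left of the grey line) and wt E13.5 tissue (right of it). The EED-cKO libraries lay a median of 0.12 below wt replicate 1 and 0.48 and 0.49 below wt replicate 2 on the log2 scale, and the spinal cord libraries lay 0.45 to 0.48 below either forebrain library.

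The direction also depended on how the libraries were scaled. With median ratio scaling, which sets the median change of all genes to 0.00, all 72 members stayed below 0 and 46 were called lower. With equal summed RPKM in every library 70 were below 0 and 29 were called. After quantile normalization 53 were below 0 and 19 above, at a median of −0.086, with 11 called lower and 1, Rps24, called higher (log2 0.20, limma adjusted p = 0.0271). Over all tested genes, 5149 were called higher and 2838 lower on the deposited scale, 4392 and 3976 with median ratio scaling, and 3637 and 4466 after quantile normalization. The median of all genes moved to 0.14 with equal summed RPKM, −0.053 after quantile normalization and 0.00 with median ratio scaling.

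Rpl22 stood apart from the rest of the family. It encodes a large-subunit protein that general translation does not require and that mouse T cells need for their development. Rpl22 was at 176.4 and 277.9 RPKM in EED-cKO, against 401.9 and 483.7 RPKM in wt. Both EED-cKO values lay below both wt values, and the 2 EED-cKO libraries differed from each other by 0.65 on the log2 scale. It fell (log2 −0.99, SE 0.198, limma adjusted p = 0.0063), a level 48.7% lower, and without wt replicate 2 the change was −0.86 and the limma adjusted p was 0.0542. Its paralogue Rpl22l1, which RPL22 protein is known to repress in mouse cells, was at 228.0 and 237.4 RPKM in EED-cKO, against 186.3 and 236.3 RPKM in wt. These groups overlapped (log2 0.15, SE 0.106, limma adjusted p = 0.288), and the sign turned to −0.022 without wt replicate 1.

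Other members with the largest declines came from both subunits. Rpl7a, of the large subunit, was at 935.8 and 908.8 RPKM in EED-cKO, against 1207.9 and 1555.3 RPKM in wt. The groups did not overlap, and it fell by 0.57 on the log2 scale (SE 0.113, limma adjusted p = 0.00608). Rpl7 was at 863.1 and 877.4 RPKM in EED-cKO, against 1116.7 and 1414.5 RPKM in wt (log2 −0.53, SE 0.111, limma adjusted p = 0.00756). Rps14, a small-subunit protein whose loss of a copy in humans is tied to anaemia, was at 1098.1 and 1173.1 RPKM in EED-cKO, against 1362.9 and 1973.4 RPKM in wt (log2 −0.53, SE 0.161, limma adjusted p = 0.0314). In Rpl7 and Rps14 too, every EED-cKO value lay below every wt value, and most of the spread was in wt. Rps15a and Rpl32 fell by 0.50 and 0.48 on the log2 scale.

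Rpl5 and Rpl11 encode the proteins that bind 5S ribosomal RNA and that can restrain MDM2 and so stabilise p53. Rpl5 was at 680.3 and 698.3 RPKM in EED-cKO, against 832.9 and 1055.1 RPKM in wt, and it fell (log2 −0.44, SE 0.109, limma adjusted p = 0.0144). Rpl11 was at 423.7 and 299.1 RPKM in EED-cKO, against 454.1 and 554.0 RPKM in wt. Rpl11 was the member in which EED-cKO replicate 2 was lowest relative to replicate 1, and its call lay near the threshold (log2 −0.49, SE 0.167, limma adjusted p = 0.0464) and was lost without wt replicate 2. The other calls lost without that library were Rpl22, Rps15a, Rps2 and Rps3, the last named after its values were seen.

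The members with the smallest changes did not pass the test. Rpl29, a large-subunit protein that mice can live without, was at 104.5 and 154.3 RPKM in EED-cKO, against 120.0 and 134.5 RPKM in wt (log2 −0.0005, SE 0.164). Its EED-cKO values lay on both sides of the wt values. Rpl41, the shortest ribosomal protein, had a log2 change of −0.058, Rps25, which serves translation from some viral entry sites, −0.089, Rps24 −0.095, and Rps12 −0.13. In each of these 5 members the groups overlapped, and each turned above 0 after quantile normalization and without wt replicate 2. Rps13, Rpl3 and Rpl30 had −0.16 each, and Rps13 and Rpl3 turned above 0 after quantile normalization.

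Members known from mouse mutants or from signalling were in part called and in part not. Rps6, whose phosphorylation by S6 kinases is a readout of mTORC1, was at 480.8 and 484.6 RPKM in EED-cKO, against 533.8 and 678.6 RPKM in wt (log2 −0.32, SE 0.111, limma adjusted p = 0.0514). Rpl38, which mouse mutants tie to Hox mRNA translation and axial skeleton patterning, was at 786.1 and 754.8 RPKM in EED-cKO, against 822.1 and 1104.8 RPKM in wt (log2 −0.31, SE 0.129, limma adjusted p = 0.0900). Neither passed the test, although the EED-cKO values of both lay below the wt values. Rps7, Rps20 and Rps4x fell by 0.38, 0.35 and 0.47, whereas Rps19 (−0.28), Rpl24 (−0.20), Rps27 (−0.26) and Rpl10a (−0.30) did not pass the test. Rpl10, a late-joining large-subunit protein encoded on the X chromosome as is Rps4x, fell by 0.40 (SE 0.0922, limma adjusted p = 0.0115).

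**Figure D3:**
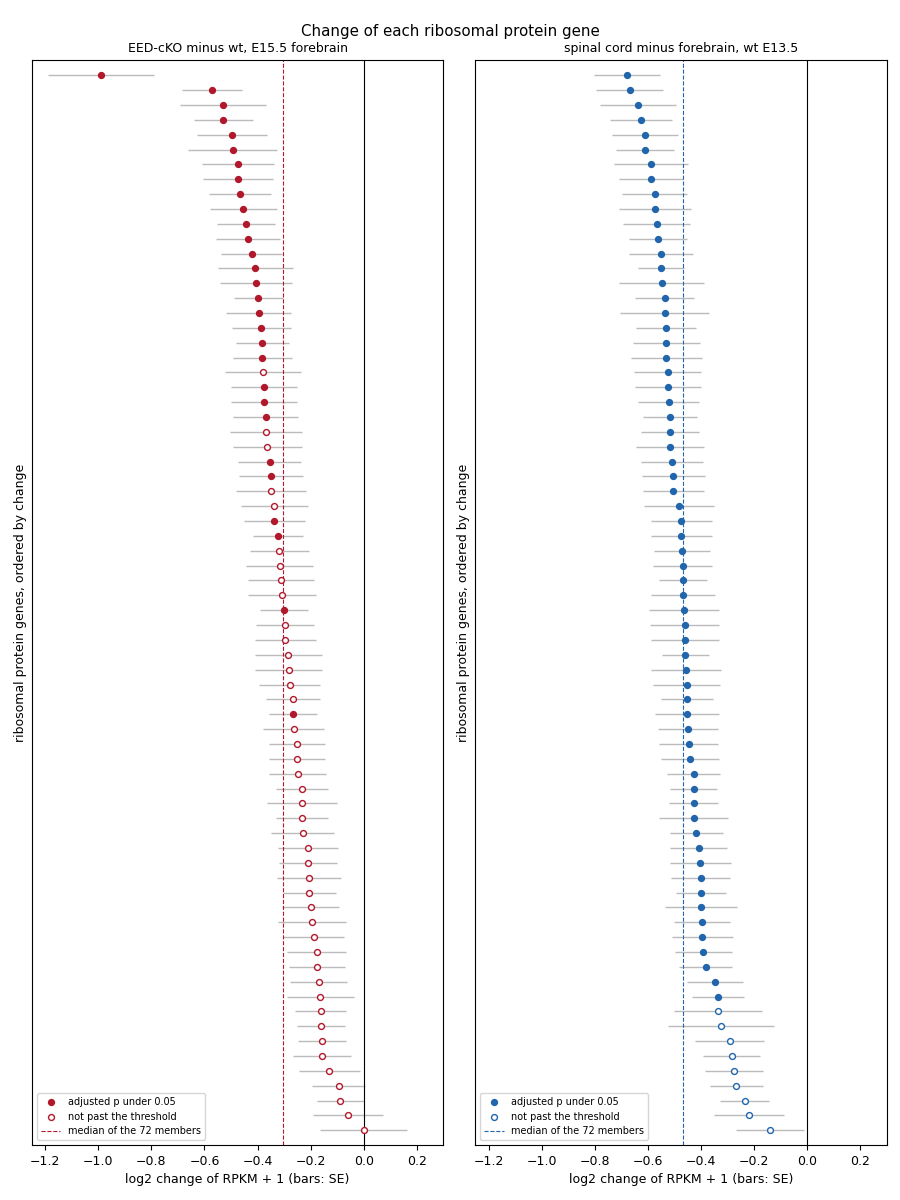
Log2 change of RPKM + 1 of each of the 72 members with its SE, for EED-cKO minus wt (left) and spinal cord minus forebrain (right), ordered by size, with filled points for limma adjusted p under 0.05. All 72 lay below 0 in both panels, with 29 called on the left and 63 on the right, and 19 of the 72 on the left lay above 0 after quantile normalization.

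In wt spinal cord at E13.5, the ribosomal protein family was lower than in forebrain of the same age. All 72 members were below 0, with a median log2 change of −0.47 (SD over members 0.106), against a median of 0.00 over all tested genes. limma called 63 of 72 lower and 0 higher, where 23.9% of all tested genes were called lower and 21.8% higher. In all 72 members both spinal cord values lay below both forebrain values, where 39.3% of all tested genes did so and 37% had both spinal cord values higher. Of the large-subunit members 35 of 43 fell (median −0.46), and of the small-subunit members 28 of 29 (median −0.47). The median corresponds to a level 27.6% lower, and the members between the quartiles lay between 24.3% and 30.7% lower. Each of the 4 pairs of single libraries gave 72 of 72 members below 0, at medians of −0.45 to −0.48. Over the 4 other scalings the median ranged from −0.45 to −0.38.

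The count of calls depended on which libraries were fitted. With any E13.5 library left out it was lower, and the share of members called was much nearer that of all tested genes. The medians in those fits lay between −0.48 and −0.45. With 1 E15.5 library left out the median stayed at −0.47. With only the 4 libraries compared, 69 members were called, where 26.6% of all tested genes were called lower. The calls of 9 members held with each of the 8 libraries left out in turn, among them Rpl5, Rpl28, Rpl30, Rpl36a, Rps2, Rps4x, Rps19 and Rps25, of which Rpl28 and Rpl36a are named after their values were seen. In the EED-cKO comparison 0 calls did so.

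The largest declines in spinal cord were those of small-subunit genes, although the subunit medians were close (−0.47 small, −0.46 large). Rps2, at the mRNA entry of the small subunit, was at 108.6 and 114.4 RPKM in spinal cord, against 173.9 and 184.6 RPKM in forebrain (log2 −0.68, SE 0.124, limma adjusted p = 0.00399). Rps19, needed to mature the small subunit and the gene most often altered in human Diamond-Blackfan anaemia, was at 103.6 and 102.2 RPKM in spinal cord, against 160.5 and 167.9 RPKM in forebrain (log2 −0.67, SE 0.126, limma adjusted p = 0.00463). These 2 genes were 37.8% and 37.3% lower, and their replicates lay close together in both tissues. Rps10 (log2 −0.64), Rps4x (−0.63) and Rps16 (−0.61) were also called. Rps25 was at 50.0 and 49.0 RPKM in spinal cord, against 70.1 and 75.9 RPKM in forebrain, and its limma adjusted p was 0.00219 (log2 −0.55, SE 0.0884).

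At the other end, 9 members did not pass the test, 8 of them of the large subunit. Rpl15 was at 64.9 and 70.0 RPKM in spinal cord, against 73.1 and 75.6 RPKM in forebrain (log2 −0.14, SE 0.127, limma adjusted p = 0.412). Rps15a was at 16.2 and 17.6 RPKM in spinal cord, against 18.4 and 21.3 RPKM in forebrain (log2 −0.22, SE 0.132, limma adjusted p = 0.223), where it was among the lowest members. The groups of both genes stood apart only narrowly. Rpl10 (−0.24), Rpl21 (−0.27), Rpl37 (−0.27) and Rpl23 (−0.28) came next, followed by Rpl38 at 62.5 and 61.5 RPKM in spinal cord, against 73.8 and 78.5 RPKM in forebrain (log2 −0.29, SE 0.129, limma adjusted p = 0.107). Rpl22 was at 108.9 and 105.6 RPKM in spinal cord, against 128.6 and 140.6 RPKM in forebrain (log2 −0.32, SE 0.198, limma adjusted p = 0.227). Its SE is that of the fit over all 8 libraries, which holds the wide spread of the EED-cKO libraries. The last of the 9 was Rpl29 (−0.34).

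The 2 comparisons share no library, but all 8 libraries were fitted together, so each member has the same SE in both. Across the 72 members, their changes had r = −0.0051 and rho = 0.14. The SD over members of the EED-cKO changes, 0.146, was of the size of single SEs (0.113 for Rpl7a). A shared order of declines could therefore be missed, and none is concluded or excluded. The test called 25 members in both comparisons, 4 in EED-cKO only (Rpl10, Rpl15, Rpl22 and Rps15a), 38 in spinal cord only and 5 in neither (Rpl21, Rpl23, Rpl29, Rpl37 and Rpl38). A call in a single comparison is not a tested difference between them. The share of all tested genes called in both was not computed, so the 25 are not read as an overlap particular to the family. In spinal cord the members with higher RPKM tended to have the larger declines (r = −0.39, rho = −0.34 with the mean log2 level). In EED-cKO this relation was weaker (r = −0.12, rho = −0.25). Levels of members with near-identical copies are uncertain, more so at E13.5, and their part in this relation was not tested.

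Ribosomal proteins with other symbols followed the family. Of 7 tested, 3 fell in EED-cKO (median −0.33) and 6 in spinal cord (median −0.55). Rack1, a scaffold on the small subunit, was at 734.6 and 740.7 RPKM in EED-cKO, against 976.6 and 1334.3 RPKM in wt E15.5 forebrain, and fell by 0.63 (SE 0.138, limma adjusted p = 0.00908). Rplp0, the base of the acidic stalk, fell by 0.48 in EED-cKO and by 0.55 in spinal cord, and Rpsa, at the mRNA exit, by 0.37 and 0.58. In the EED-cKO comparison 0 of the 7 were called with 1 EED-cKO library left out, 1 with 1 spinal cord library left out and all 7 without wt E15.5 replicate 1, and with any E13.5 library left out 1 or 2 were called in spinal cord. The stalk proteins Rplp1 (−0.24) and Rplp2 (−0.33) did not pass the test in EED-cKO and fell by 0.49 and 0.64 in spinal cord. Of 4 tested paralogues, 2 fell and 0 rose in EED-cKO, and without wt E15.5 replicate 2 none was called lower and 2 were called higher. Rps27l, a p53 target, was at 130.0 and 131.0 RPKM in EED-cKO, against 101.4 and 119.2 RPKM in wt (log2 0.25, limma adjusted p = 0.0904). In spinal cord Rpl22l1, Rps27l and Rpl7l1 fell by 0.66, 0.83 and 0.75.

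The translation factors that use the ribosome were lower too. Of 8 elongation factors, 4 fell and 1 rose in EED-cKO (median −0.30), and 5 fell and 2 rose in spinal cord (median −0.37). Eef1a1, which brings aminoacyl-tRNA to the ribosome, fell by 0.44 and 0.41, and Eif5a by 0.48 and 0.59. Eef1a2, the neuronal counterpart of Eef1a1, rose in EED-cKO by 0.54 and in spinal cord by 1.43. Eef2, the translocase, fell by 0.42 in EED-cKO, whereas in spinal cord it was at 739.2 and 713.3 RPKM, against 764.6 and 748.2 RPKM in forebrain (log2 −0.059). Of 36 initiation factors, 20 fell and 3 rose in EED-cKO (median −0.28), led by the helicase Eif4a1 (−0.76), and 24 fell and 1 rose in spinal cord (median −0.33). Of all tested genes, 16.7% were called lower in EED-cKO and 23.9% in spinal cord. Wt E15.5 replicate 2 exceeded replicate 1 by a median of 0.30 over the elongation factors and 0.14 over the initiation factors. Without either EED-cKO library fewer factors of both lists were called lower in EED-cKO, and without forebrain replicate 2 fewer were called lower in spinal cord.

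Genes that build ribosomes showed the same direction. Of 56 assembly factors, 29 fell and 1 rose in EED-cKO (median −0.22), and 44 fell and 2 rose in spinal cord (median −0.40). Fbl, the methyltransferase of box C/D small nucleolar RNPs, fell by 0.56 in EED-cKO, and Rrp9 by 0.72. In spinal cord the largest declines of the list were those of Dkc1 (−1.06) and Gar1 (−0.98), of the box H/ACA RNPs, and of Npm1 (−0.87), a nucleolar chaperone. In wt E15.5 forebrain the 2 replicates differed by a median of −0.0021 over this list, and without wt replicate 2 its EED-cKO median was −0.21 with 27 called lower. Without either EED-cKO library fewer assembly factors were called lower. Among genes of the RNA polymerase I machinery the share called lower was then close to that of all tested genes. Of 20 genes of the RNA polymerase I machinery, 8 fell and 1 rose in EED-cKO (median −0.23), and 10 fell and 1 rose in spinal cord (median −0.29). Of 10 host genes of small nucleolar RNAs, 3 fell in EED-cKO (median −0.16) and 6 in spinal cord (median −0.28), and without wt E15.5 replicate 2 the EED-cKO count was 1 lower and 2 higher. The spinal cord count of these host genes was 2 without forebrain replicate 2 or spinal cord replicate 2 and 3 without spinal cord replicate 1.

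Mitochondrial ribosomal proteins are encoded by a separate set of nuclear genes. Of 77, 31 fell in EED-cKO (median −0.24) and 30 in spinal cord (median −0.24), with 0 higher in either. Wt E15.5 replicate 2 exceeded replicate 1 here as well, by a median of 0.25, and without it the EED-cKO median was −0.093 with 15 called lower. Fewer were called without either EED-cKO library, and fewer in spinal cord without forebrain replicate 2. Their shares were then close to or below those of all tested genes. Among 24 genes of the mTORC1 pathway, 5 rose and 3 fell in EED-cKO (median −0.019), and 1 rose and 3 fell in spinal cord (median −0.063). Of all tested genes, 30.2% were called higher and 16.7% lower in EED-cKO, and 21.8% and 23.9% in spinal cord. Both EED-cKO counts of the mTORC1 list were larger without wt E15.5 replicate 1. The median of this list in EED-cKO was 0.057 with equal summed RPKM. Sesn2, an inhibitor of mTORC1, was at 16.8 and 17.3 RPKM in EED-cKO, against 3.9 and 3.5 RPKM in wt (log2 1.94), and Eif4ebp2, a translation repressor, fell by 0.46 in EED-cKO and 0.77 in spinal cord. Of 13 Myc and p53 checkpoint genes, 5 fell and 1 rose in each comparison. Mycn, a Myc factor of neural progenitors, was at 27.6 and 25.3 RPKM in EED-cKO, against 71.8 and 74.8 RPKM in wt (log2 −1.44), and fell by 0.99 in spinal cord. Trp53 fell by 0.66 and 0.74, and the p53 target Cdkn1a rose in EED-cKO by 1.52.

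**Figure D4:**
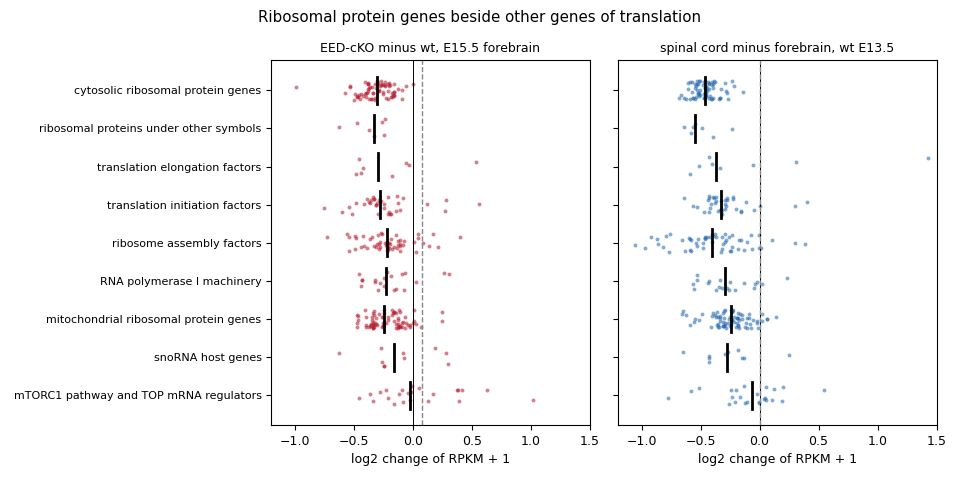
Log2 change of RPKM + 1 of ribosomal protein genes and of other genes of translation and ribosome production, for EED-cKO minus wt (left) and spinal cord minus forebrain (right), with 1 point per gene, a bar at each list's median and a dashed line at the median of all tested genes. The ribosomal protein medians were −0.30 and −0.47, and 2 genes of the left panel lay beyond the axis.

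Markers of cell types moved with these comparisons. Of 14 cell division genes, 13 fell in EED-cKO (median −0.78), with summed levels of 326.7 and 364.0 RPKM, against 592.0 and 663.2 RPKM in wt. In spinal cord all 14 fell (median −2.17), with 215.6 and 225.2 RPKM, against 979.6 and 1137.8 RPKM in forebrain. All 10 neuron markers rose in spinal cord (2807.2 and 2704.8 RPKM, against 1822.7 and 1628.1 RPKM in forebrain), and in EED-cKO 3 rose and 2 fell. Of 10 neural progenitor markers, 4 rose and 3 fell in EED-cKO, and 2 rose and 7 fell in spinal cord. In EED-cKO, markers of mesenchyme (10 of 10 rose, 769.9 and 941.4 RPKM against 263.0 and 200.4 RPKM), endothelium (8 of 8, 271.3 and 278.8 RPKM against 191.4 and 184.1 RPKM), microglia (7 of 8, 161.1 and 177.4 RPKM against 90.4 and 99.3 RPKM) and choroid plexus (6 of 6, 5790.7 and 4526.4 RPKM against 2120.0 and 2278.4 RPKM) were higher than in wt. Erythroid genes, summed, were at 11537.4 and 12991.7 RPKM in EED-cKO, against 8276.6 and 11082.4 RPKM in wt, with 1 of 10 higher and 1 lower. The lower gene was Hbb-bt, an adult beta-globin gene, at 5.9 and 8.1 RPKM in EED-cKO, against 395.4 and 547.4 RPKM in wt (log2 −5.88, limma adjusted p = 8.4e-06), and it is named after its values were seen. Its near-identical neighbour Hbb-bs was at 5109.1 and 5902.3 RPKM in EED-cKO, against 3159.1 and 4340.1 RPKM in wt, and did not pass the test. Beta-globin genes differ between mouse strains and the labels name none, so a difference of strain and the genotype cannot be told apart in any of the EED-cKO values. In spinal cord 8 of 10 erythroid genes fell, with 5974.7 and 5904.3 RPKM, against 8164.2 and 11034.1 RPKM in forebrain, and the count was 0 without forebrain replicate 2 or spinal cord replicate 2, 2 without spinal cord replicate 1 and 3 with 1 EED-cKO library left out. No marker in the table was at 0 in all 8 libraries. The part of these cell types in the change of ribosomal protein genes was not tested.

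Transcript length moved with the EED-cKO comparison and with the difference between the wt E15.5 replicates. Ribosomal protein transcripts are short, with a median length of 704 bases. Among other tested genes, those under 1 kb (n = 2368) had a median log2 change of 0.00 in EED-cKO, those of 1 to 2 kb 0.026, those of 2 to 4 kb 0.088, and those of 4 kb or more (n = 2583) 0.23. The same bins had medians of 0.11, 0.071, −0.074 and −0.26 between wt replicate 2 and replicate 1, and −0.085, −0.044, 0.00 and 0.061 in spinal cord. The members, at −0.30, 0.36 and −0.47, lay beyond the median of the bin under 1 kb in all 3. The longest member had 3706 bases, and expression levels were not matched between members and bins. Of the 13 protein-coding transcripts of the mitochondrial genome, a list added after seeing the data, 8 rose and 0 fell in EED-cKO (median 0.59), and the median was 0.21 in spinal cord. Of those named here, ND6, a subunit of complex I, rose by 0.97 and COX1, a subunit of complex IV, by 0.61, whereas ND1 (0.25) and COX3 (0.13) did not pass the test in EED-cKO. COX1 was at 4791.4 and 4572.1 RPKM in EED-cKO, against 3393.5 and 2755.8 RPKM in wt E15.5 forebrain, with wt replicate 2 the lowest. The part of transcript length or of mitochondrial transcripts in the members' change was not tested.

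**Figure D5:**
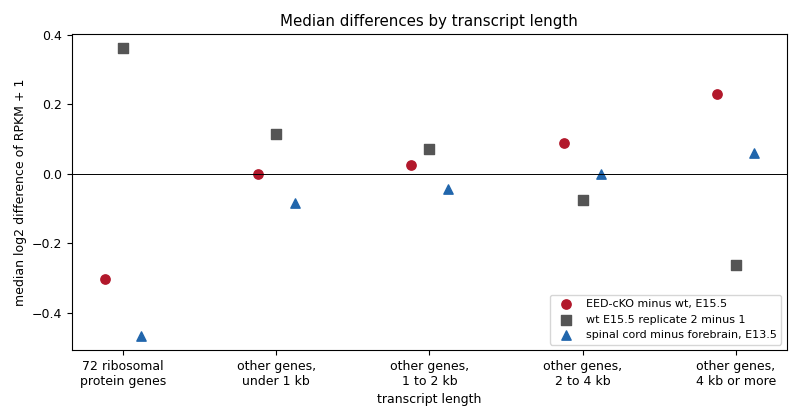
Median log2 difference of RPKM + 1 of the 72 members and of other tested genes by transcript length, for EED-cKO minus wt, wt E15.5 replicate 2 minus 1, and spinal cord minus forebrain. The members lay at −0.30, 0.36 and −0.47, and other genes under 1 kb at 0.00, 0.11 and −0.085.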

How the data were processed

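Total RNA of dissected tissue was made into unstranded libraries and sequenced as single-end reads of 50 bases, per the labels. The authors deposited RPKM values rounded to 0.1 for 36333 rows and 8 libraries. Genome builds mm9 and GRCm38 are named in the submitters' processing notes without roles, and how reads were aligned and counted is not given in the sources used here. Without counts, library depth is unknown and counting intervals could not be given. Reads of near-identical copies and of overlapping genes cannot be separated, which bears on this family above others.

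Rows of the E15.5 columns were matched to the names sorted alphabetically, ignoring case and hyphens, a choice made after seeing the data, which moved 23016 rows. Of 16 repeated symbols, the rows of lower mean were left out. Values were taken as log2(RPKM + 1), which understates the change of low genes. The 17022 genes that reached 1 RPKM in 2 or more libraries were tested with limma 3.58.1 (R 4.3.3) in a two-sided moderated fit of 4 group means with a mean-variance trend and 4 residual degrees of freedom. Calls are at adjusted p under 0.05 (Benjamini-Hochberg, over the whole table), in 2 comparisons. An exact two-sided permutation test of 2 libraries against 2 could not go below p = 0.333. Alternatives covered scaling, the pseudocount, the filter, the libraries fitted, the replicate block and the row order.

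Named members were the 8 highest and 8 lowest changes in EED-cKO, the 6 highest and 6 lowest in spinal cord, the 5 highest and 5 lowest levels at each age, and 14 members of known role. From each other list up to 4 called genes with the largest changes could be named. Some genes that these rules name are not reported here. The members and lists were chosen with earlier results of these data known. Transcript lengths are medians over protein-coding transcripts of GENCODE vM21, known for 82.0% of tested genes. Promoters are those of RefSeq for GRCm38.p6. Summaries and figures used Python 3.11.15 with pandas 2.3.3, matplotlib 3.10.9 and numpy 2.4.6. The knockout spinal cord that the design text mentions was not analysed here.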

Additional observations from a re-analysis of the deposited data

How the results depend on the processing

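For EED-cKO against wt, 29 members were called lower, and the count was 46 with median ratio scaling, 11 after quantile normalization and 7 with no filter. It was 0 with only the 4 libraries compared in limma (3 at an unadjusted p under 0.05). In the same order, 16.7%, 23.4%, 26.2%, 9.83% and 8.13% of all tested genes were called lower. With single libraries left out the count of members varied widely. The count called higher was 1 after quantile normalization and 3 in the deposited row order. The median was −0.086 after quantile normalization and −0.49 to −0.13 with single libraries left out. For spinal cord against forebrain, 63 members were called lower, and the count was 39 with no filter, 69 with only the 4 libraries compared and 13 to 68 with single libraries left out. Of all tested genes, 23.9% were called lower in the main fit, 13.4% with no filter and 26.6% with only the 4 libraries compared. With any E13.5 library left out, the share of members called was much nearer that of all tested genes. The members' median was −0.45 with median ratio scaling, −0.40 with equal summed RPKM and −0.42 with equal summed RPKM outside the family. It was −0.38 after quantile normalization and −0.48 to −0.45 with single libraries left out. In each of these, 72 of 72 members were below 0. The ratio of summed RPKM, 0.711 (SD 0.00827), was 0.719 with median ratio scaling. The cause of these shifts was not tested.

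Single changes in EED-cKO turned sign as follows. With equal summed RPKM, Rpl29 was at 0.076 and Rpl41 at 0.019, and with equal sums outside the family Rpl29 was at 0.053. After quantile normalization, Rpl29 was at 0.11, Rpl41 at 0.12, Rps25 at 0.078, Rps24 at 0.20, Rps12 at 0.16, Rps13 at 0.079 and Rpl3 at 0.036. With single libraries left out, Rpl29 ranged from −0.28 (without EED-cKO replicate 2) to 0.28 (without EED-cKO replicate 1). Without wt E15.5 replicate 1 and replicate 2, Rpl41 was at −0.27 and 0.15, Rps25 at −0.21 and 0.029, Rps24 at −0.23 and 0.036, Rps12 at −0.29 and 0.029, and Rpl22l1 at −0.022 and 0.32, and these are their extremes with a library left out. In the deposited order Rps25 was at 0.33, Rps12 at 0.25 and Rpl22l1 at −0.16. Of 1411 values of named genes under the alternatives, 1214 kept direction and side of the threshold, 130 lost it, 47 gained it and 20 turned sign. No member has the same row in both orders, so that alternative gave no value.

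Replicate numbers are shared across groups but no label says that they pair samples. Deviations of same-numbered libraries had r = −0.12 in E15.5 forebrain and 0.21 in E13.5 tissue across 17022 genes. With the replicate block, 17 members were called lower in EED-cKO and 56 in spinal cord, where 12.9% and 20.3% of all tested genes were called lower.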
